A study of Mus musculus with 14 samples.

Results

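C-type lectin receptors are membrane proteins with which myeloid cells read carbohydrate and lipid structures on microbes and on damaged host cells. Activating members signal through the kinase Syk, either by a motif of their own (Clec7a) or through the adaptor Fcer1g (Clec4e, Clec4d, Clec4n), and an inhibitory member such as Clec4a2 recruits phosphatases. In monocytes the activating group is known for antifungal and antimycobacterial responses, and the galactose-type lectins Clec10a and Mgl2 are widely used as markers of macrophages exposed to IL-4. Here 10 such genes were followed: Clec4d, Clec4e, Clec4n, Clec7a, Clec10a, Mgl2, Clec4a1, Clec4a2, Clec4a3 and Clec9a. They were listed by name, with earlier results of these data known. All 10 were matched by Ensembl identifier among 55487 gene entries, and all 10 were among the 14754 genes with enough counts to be tested.

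The counts come from mRNA sequencing of monocytes taken from the bone marrow of mouse legs, from AhR-deficient mice and from wild-type mice, cultured for 3 h. AhR, the aryl hydrocarbon receptor, senses small aromatic molecules and acts as a transcription factor, and IL-4 is a cytokine of type 2 immunity. The 4 groups were AhR-deficient cells with 20 ng/mL of mouse IL-4 (n = 3), AhR-deficient cells in medium (n = 3), wild-type cells with the same dose of IL-4 (n = 4) and wild-type cells in medium (n = 4). The titles number the libraries 4, 5 and 6 in AhR-deficient cells and 1, 2, 3 and 7 in wild type, and values below follow that order. The labels do not give the allele, strain, age or sex of the mice, nor whether a library is 1 animal or a pool, so p-values measure the spread between these libraries, which may in part be technical.

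Several facts of the libraries bear on every genotype comparison. Total counts ran from 33432502 to 42885079. Ahr mRNA stood at 36.9 to 45.2 CPM in AhR-deficient cells against 23.7 to 26.9 CPM in wild type in IL-4, and at 15.7 to 26.1 CPM against 11.4 to 14.4 CPM in medium. CPM stands for counts scaled to a common library size of 1e6. Ahr mRNA was thus no lower under the AhR-deficient label, and since counts are per gene a deleted exon would not be seen, so the label is used as given. Xist ran from 987 to 1284 CPM in AhR-deficient cells and did not exceed 2.12 CPM in wild type. The Y-linked gene Ddx3y was at 0 CPM in AhR-deficient cells and at 114 to 143 CPM in wild type. Genotype and sex therefore cannot be told apart in any genotype comparison, also for the members. The monocyte gene Ccr2 averaged 508 ± 49.2 CPM in AhR-deficient cells against 1714 ± 106 CPM in wild type in IL-4, and 381 ± 85.0 against 1277 ± 549 CPM in medium (SD). Other classical monocyte markers went both ways between genotypes. Ly6c2 averaged 1003 CPM in AhR-deficient cells against 773 CPM in wild type in IL-4, and 1079 against 814 CPM in medium. Vcan averaged 845 against 1021 CPM in IL-4, and 1876 against 2012 CPM in medium. The cells had been enriched to 90 to 95% purity. The 12 classical monocyte markers summed to 29702 to 40437 CPM in AhR-deficient and 29285 to 42093 CPM in wild-type libraries, while the 14 lymphocyte and NK cell markers summed to at most 5.84 CPM. In bulk samples of this kind, fewer cells of a type and less RNA per cell cannot be told apart.

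The members lie in 3 groups of neighbouring lectin genes, and their upstream sequences are shown here because some neighbouring genes moved together with IL-4. On GRCm38 chromosome 6, Clec4a1, Clec4a3, Clec4a2, Clec4n, Clec4d and Clec4e lie within 368023 bases, Clec9a and Clec7a lie in a second group on the same chromosome, and Mgl2 and Clec10a are neighbours on chromosome 11. Of the 10 members, 8 matched the RefSeq promoter table of GRCm38.p6, and Clec4n and Clec10a did not. The 250 bases before the annotated start are printed for Clec4d (chr6:123261857-123262106, plus strand) and Clec4e (chr6:123289872-123290121, minus strand), whose mRNA fell most with IL-4, and for Clec7a (chr6:129472780-129473029, minus strand) and Mgl2 (chr11:70130107-70130356, plus strand), whose mRNA rose. Each reads 5′ to 3′ on the strand of its gene. Capitals mark every match, on either strand, to TTCNNNNGAA and TTCNNNGAA (letters that STAT factors can bind), TTGCNNAA (C/EBP factors) and GAGGAA (the core bound by PU.1).
Clec4d: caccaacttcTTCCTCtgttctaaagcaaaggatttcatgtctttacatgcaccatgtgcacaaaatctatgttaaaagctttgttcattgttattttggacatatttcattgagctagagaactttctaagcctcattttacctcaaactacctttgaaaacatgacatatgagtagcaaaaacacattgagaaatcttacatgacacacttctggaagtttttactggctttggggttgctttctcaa
Clec4e: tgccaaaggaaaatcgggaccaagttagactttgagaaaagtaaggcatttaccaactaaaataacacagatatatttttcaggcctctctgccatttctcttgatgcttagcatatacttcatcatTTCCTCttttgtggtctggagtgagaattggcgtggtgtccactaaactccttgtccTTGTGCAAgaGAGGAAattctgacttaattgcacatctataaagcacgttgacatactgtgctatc
Clec7a: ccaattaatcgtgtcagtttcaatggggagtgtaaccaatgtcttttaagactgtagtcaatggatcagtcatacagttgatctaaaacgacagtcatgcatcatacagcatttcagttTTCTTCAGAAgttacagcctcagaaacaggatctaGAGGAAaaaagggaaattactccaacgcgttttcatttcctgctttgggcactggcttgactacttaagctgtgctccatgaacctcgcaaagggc
Mgl2: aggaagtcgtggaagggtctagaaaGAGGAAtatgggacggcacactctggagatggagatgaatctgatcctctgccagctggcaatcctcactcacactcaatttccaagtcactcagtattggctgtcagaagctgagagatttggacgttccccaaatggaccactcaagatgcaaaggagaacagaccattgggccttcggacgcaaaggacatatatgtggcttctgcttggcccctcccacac

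The letters TTCNNNNGAA were found in 2 of the 8 members, at −131 to −122 from the start of Clec7a and at −244 to −235 from that of Clec4a1, and 5.854% of all 32851 RefSeq promoters of this length hold them. TTCNNNGAA was found in Clec4a2 (7.02% of all promoters) and TTGCNNAA in Clec4e (9.564%). GAGGAA was found in 6 of the 8, all but Clec4a2 and Clec9a, against 23.253% of all promoters. Both Clec7a and Clec4a3 have 2 annotated starts, and all were searched. A member counts if any of its starts matches, as Clec4a3 does for GAGGAA at its later start only. The shares over all promoters are by promoter entry, so the bases differ. The window of Clec4a2 (chr6:123122440-123122689) lies inside its gene as annotated here, which begins at 123106428. Such matches describe letters and are not sites shown to be bound.

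Among pairs of members, the upstream windows of the neighbours Clec4a1 and Clec4a3 shared the longest similar stretch, which is shown because both genes rose with IL-4. In a local alignment 45 of 51 positions were identical, and capitals again mark GAGGAA or its reverse complement. Positions for Clec4a3 count from the later of its annotated starts, and its stretch lies downstream of the earlier one.
Clec4a1 (chr6:122921614-122921663, plus strand, −234 to −185): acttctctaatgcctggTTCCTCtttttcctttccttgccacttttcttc
Clec4a3 (chr6:122952576-122952624, plus strand, −68 to −20): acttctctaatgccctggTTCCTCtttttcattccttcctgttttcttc

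IL-4 split the members into 3 sets that were the same in both genotypes. The receptors for mycobacterial and fungal glycans Clec4d, Clec4e and Clec4n fell steeply, Mgl2, Clec10a, Clec7a and Clec4a3 rose strongly or moderately and Clec4a1 slightly, Clec4a2 fell slightly, and Clec9a did not pass the test. A member counts as called at an adjusted p under 0.05 in edgeR's quasi-likelihood test, with adjustment over all 14754 genes. In AhR-deficient cells 9 of 10 members were called, 5 up and 4 down, where 29.5% of all genes were called (15.4% up and 14.2% down). In wild type 9 of 10 were called, 5 up and 4 down, where 35.9% of all genes were called (19.4% up and 16.5% down). Because the members were chosen with earlier results known, these counts beside all genes are only a description. The median log2 difference, IL-4 over medium, was 0.37 over the members in AhR-deficient cells and 0.18 in wild type, and −0.01 and 0.01 over all genes tested. Libraries in IL-4 and in medium did not overlap for 10 of 10 members in AhR-deficient cells (43.7% of all genes) and for 8 of 10 in wild type (33.2%). Marker sums of other cell types moved with IL-4 as well, and their part in these results was not tested. The 10 nonclassical monocyte markers summed to 1711 to 1943 CPM in IL-4 against 2725 to 3422 CPM in medium in AhR-deficient cells and to 1393 to 1874 against 2193 to 3362 CPM in wild type. The 16 dendritic cell markers summed to 2558 to 2797 CPM in IL-4 against 1824 to 1986 CPM in medium in AhR-deficient cells and to 2777 to 2861 against 1868 to 1925 CPM in wild type. Within each list single markers went both ways. Nonclassical Cd36 averaged 250 CPM in IL-4 against 102 CPM in medium in AhR-deficient cells and 161 against 72.8 CPM in wild type. Most of the dendritic cell sum was Sirpa, at 1623 against 1170 CPM in AhR-deficient cells and 1698 against 1163 CPM in wild type. Irf8 of the same list averaged 248 against 296 CPM and 188 against 248 CPM. With a granulocyte marker score as a covariate 9 of 10 members were called in each genotype. Of the neutrophil markers, Cxcr2 averaged 10.9 CPM in IL-4 against 1.27 CPM in medium in AhR-deficient cells. In wild type it averaged 11.8 against 1.89 CPM, so such a score need not measure granulocyte content alone. S100a9 moved little, at 104 against 118 CPM and 208 against 204 CPM.

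**Figure D1:**
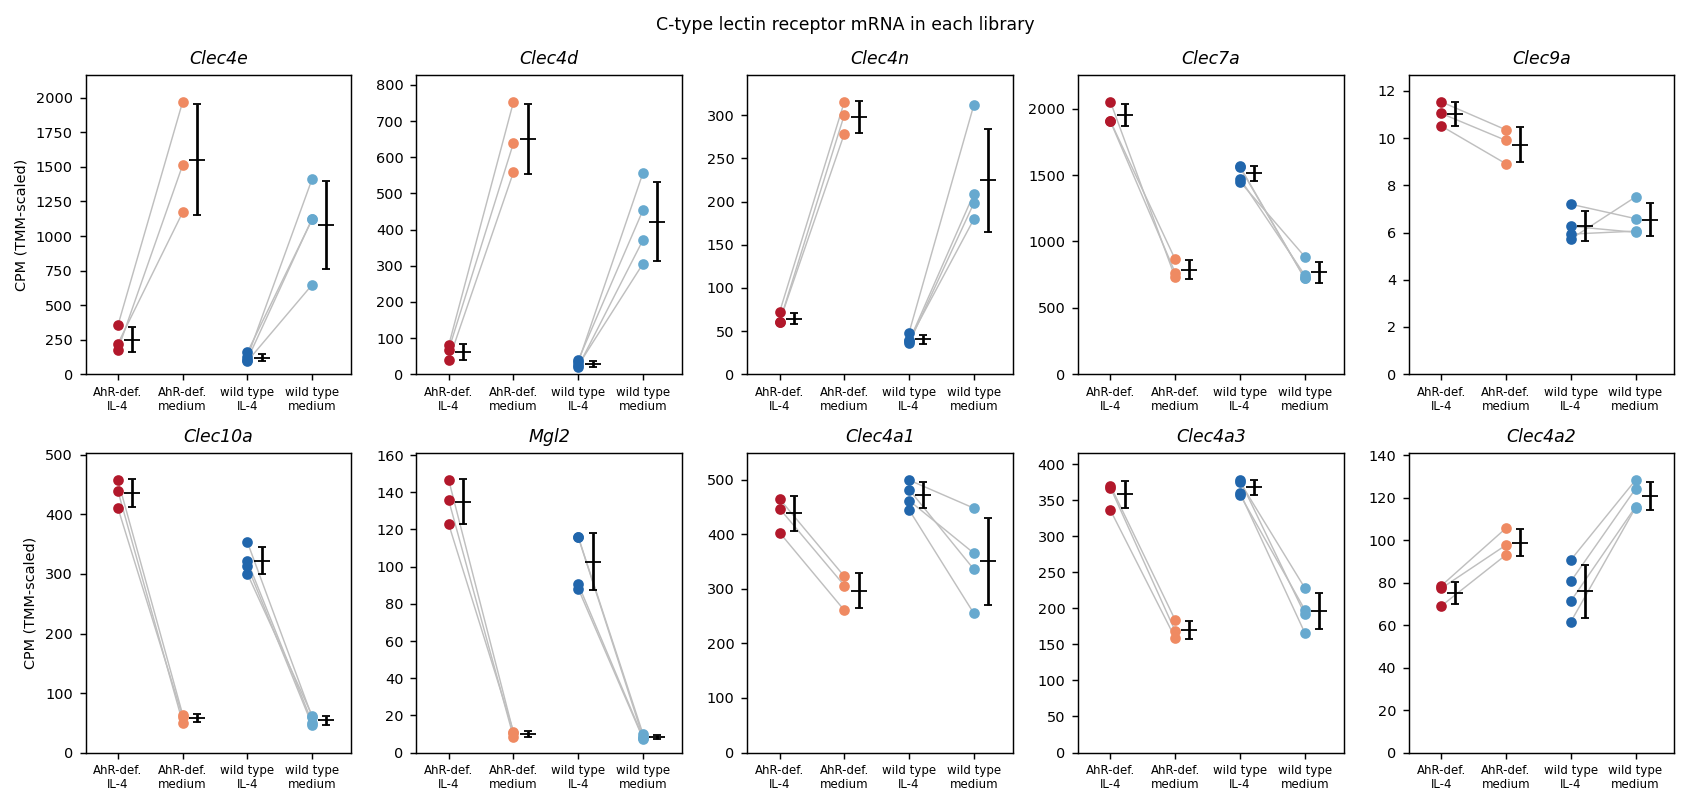
Level of each member in each library, in CPM after TMM scaling, for AhR-deficient cells in IL-4 and in medium and wild-type cells in IL-4 and in medium. Points are libraries, grey lines join libraries of the same number, and black bars are the group mean ± SD; Clec4e, Clec4d and Clec4n sit low in IL-4 in both genotypes, Clec10a and Mgl2 sit high, and Clec9a differs mainly between genotypes.

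Clec4e (ENSMUSG00000030142.10, chromosome 6, 123281789 to 123289870, minus strand) encodes Mincle, a receptor for the mycobacterial glycolipid trehalose dimycolate that signals through Fcer1g and Syk. In AhR-deficient cells it stood at 353, 220.3 and 178 CPM in IL-4, against 1971, 1171 and 1514 CPM in medium. In wild type it stood at 94.3, 107, 159 and 123 CPM in IL-4, against 648, 1126, 1120.0 and 1414 CPM in medium. No library in IL-4 reached any library in medium, and wild-type number 1 was the lowest in medium. The log2 difference was −2.63 ± 0.31 in AhR-deficient cells (adjusted p = 2e-05) and −3.16 ± 0.28 in wild type (adjusted p = 7.56e-07; edgeR, ± SE).

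Clec4d (ENSMUSG00000030144.4, chromosome 6, 123262111 to 123275265, plus strand) encodes MCL, also called Dectin-3, which is known to pair with Mincle and to help it reach the cell surface. AhR-deficient cells had 80.4, 67.9 and 38.3 CPM in IL-4, against 753, 639.7 and 559 CPM in medium. Wild-type cells had 24.7, 21.1, 39.0 and 32.9 CPM in IL-4, against 306, 372, 454 and 557 CPM in medium. The groups were far apart in both genotypes, and Clec4d had the largest fall of the members in each genotype. IL-4 over medium, the log2 difference was −3.39 ± 0.30 in AhR-deficient cells (adjusted p = 1.27e-06) and −3.84 ± 0.27 in wild type (adjusted p = 6.96e-08). Ordered by log2 difference, only 13 of the 14754 genes tested fell further in wild type. Library by library within a number, the level in IL-4 was 0.0686 to 0.107 of that in medium in AhR-deficient cells and 0.0567 to 0.0859 in wild type.

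Clec4n (ENSMUSG00000023349.14, chromosome 6, 123229843 to 123247021, plus strand) encodes Dectin-2, a receptor for fungal mannans that also uses Fcer1g. In AhR-deficient cells the values were 71.9, 60.9 and 60.3 CPM in IL-4, against 316, 279 and 300.5 CPM in medium. In wild type the values were 39.4, 38.1, 36.2 and 48.3 CPM in IL-4, against 179.6, 209, 198 and 312 CPM in medium. The groups did not overlap, and wild-type number 7 was the highest of its genotype in both conditions. This gave a log2 difference of −2.21 ± 0.17 in AhR-deficient cells (adjusted p = 3.82e-07) and −2.47 ± 0.15 in wild type (adjusted p = 2.16e-08).

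Clec7a (ENSMUSG00000079293.11, chromosome 6, 129461591 to 129472779, minus strand) encodes Dectin-1, the receptor for fungal beta-glucan, and moved in the opposite direction to the other antifungal receptor genes. The annotation used types it as a polymorphic pseudogene. AhR-deficient cells held it at 2052, 1904 and 1905 CPM in IL-4, against 729, 765 and 865 CPM in medium. Wild-type cells held it at 1564, 1473, 1558 and 1451 CPM in IL-4, against 722, 747, 721 and 886 CPM in medium. Every library in IL-4 was above every library in medium, and wild-type number 7 was the highest in its medium group. The difference on the log2 scale was 1.31 ± 0.08 in AhR-deficient cells (adjusted p = 4.7e-08) and 0.97 ± 0.07 in wild type (adjusted p = 1.37e-07).

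Mgl2 (ENSMUSG00000040950.13, chromosome 11, 70130329 to 70137550, plus strand) encodes CD301b, a receptor for galactose and N-acetylgalactosamine, and had the largest rise of the members. In AhR-deficient cells it stood at 136, 147 and 123 CPM in IL-4, against 8.30, 10.6 and 11.2 CPM in medium. In wild type it stood at 116, 116, 88.1 and 90.6 CPM in IL-4, against 9.89, 8.30, 7.51 and 7.99 CPM in medium. Groups in IL-4 and medium were widely separated. The log2 difference was 3.75 ± 0.15 in AhR-deficient cells (adjusted p = 3.51e-10) and 3.61 ± 0.13 in wild type (adjusted p = 7.41e-11), which is 10.97 to 16.3-fold within numbers in AhR-deficient cells and 11.3 to 13.96-fold in wild type. The lowest wild-type value was that of number 7, whose libraries did not correlate best with each other.

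Clec10a (ENSMUSG00000000318.16, chromosome 11, 70156197 to 70170834, plus strand) encodes CD301a, the other galactose-type lectin of mouse macrophages. AhR-deficient cells had 439.6, 458 and 411 CPM in IL-4, against 50.4, 63.7 and 60.3 CPM in medium. Wild-type cells had 353, 322, 313 and 300.3 CPM in IL-4, against 59.4, 50.2, 46.0 and 62.0 CPM in medium. The groups did not overlap. IL-4 over medium, the log2 difference was 2.91 ± 0.12 in AhR-deficient cells (adjusted p = 4.01e-10) and 2.57 ± 0.10 in wild type (adjusted p = 1.59e-10). Transcripts of Mgl2 and Clec10a share sequence, with 12.2% of the 50-base windows of Mgl2 also found in Clec10a and 8.49% of those of Clec10a in Mgl2, so the counts of the pair are uncertain to the extent that the counting could split such reads. The ratio of Clec10a to Mgl2 in CPM was 3.12 to 3.35 in IL-4 against 5.39 to 6.07 in medium in AhR-deficient cells, and 2.78 to 3.56 against 6.01 to 7.76 in wild type.

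The 3 members of the DCIR family lie side by side with other Clec4 genes and did not respond alike. Clec4a3 (ENSMUSG00000043832.13, chromosome 6, 122952515 to 122969875, plus strand) stood at 367, 336 and 370.0 CPM in IL-4, against 168, 159 and 184 CPM in medium, in AhR-deficient cells. In wild type the values were 360.4, 378, 375 and 358 CPM in IL-4, against 166, 192, 228 and 198 CPM in medium. The groups did not overlap, and the log2 difference was 1.07 ± 0.09 in AhR-deficient cells (adjusted p = 9.36e-07) and 0.91 ± 0.08 in wild type (adjusted p = 7.49e-07).

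Clec4a1 (ENSMUSG00000049037.8, chromosome 6, 122921848 to 122934619, plus strand) rose less. In AhR-deficient cells the values were 465, 403 and 447 CPM in IL-4, against 323, 261 and 306 CPM in medium. Wild-type cells held it at 445, 482, 499 and 462 CPM in IL-4, against 255, 336, 448 and 365 CPM in medium. The groups were apart in AhR-deficient cells and overlapped in wild type, where number 3 in medium exceeded number 1 in IL-4. This gave a log2 difference of 0.56 ± 0.15 in AhR-deficient cells (adjusted p = 0.0102) and 0.43 ± 0.13 in wild type (adjusted p = 0.018). Without the libraries of numbers 1 and 2 the rise in wild type did not pass (0.23, adjusted p = 0.191).

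Clec4a2 (ENSMUSG00000030148.15, chromosome 6, 123106428 to 123143999, plus strand), which encodes the inhibitory receptor DCIR1, fell. AhR-deficient cells held it at 77.3, 78.5 and 69.0 CPM in IL-4, against 97.6, 106 and 93.0 CPM in medium. In wild type it stood at 80.5, 71.2, 61.5 and 90.6 CPM in IL-4, against 124, 116, 115 and 128 CPM in medium. The groups did not overlap in either genotype. The difference on the log2 scale was −0.40 ± 0.11 in AhR-deficient cells (adjusted p = 0.0136) and −0.67 ± 0.10 in wild type (adjusted p = 7.96e-05). In AhR-deficient cells the call was lost without number 5 in medium (adjusted p = 0.0548) or number 6 in IL-4 (adjusted p = 0.0621). Clec4a2 shares 3.85% of its 50-base windows with Clec4a4 and 2.30% with Clec4b1.

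Clec9a (ENSMUSG00000046080.17, chromosome 6, 129408862 to 129424763, plus strand) encodes DNGR-1, a sensor of dead cells and a marker of conventional dendritic cells of the cross-presenting type, and was the lowest member. In AhR-deficient cells it stood at 11.5, 11.04 and 10.5 CPM in IL-4, against 10.3, 9.90 and 8.91 CPM in medium. Wild-type cells had 5.93, 6.26, 7.20 and 5.72 CPM in IL-4, against 6.06, 6.01, 6.59 and 7.50 CPM in medium. The log2 difference with IL-4 was 0.18 ± 0.10 in AhR-deficient cells (adjusted p = 0.227), where libraries were apart, and −0.06 ± 0.09 in wild type (adjusted p = 0.681), where they overlapped. Clec9a shares 184 exonic bases with Clec1b on the same strand, and Clec1b was at most 1.12 CPM in any library.

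**Figure D2:**
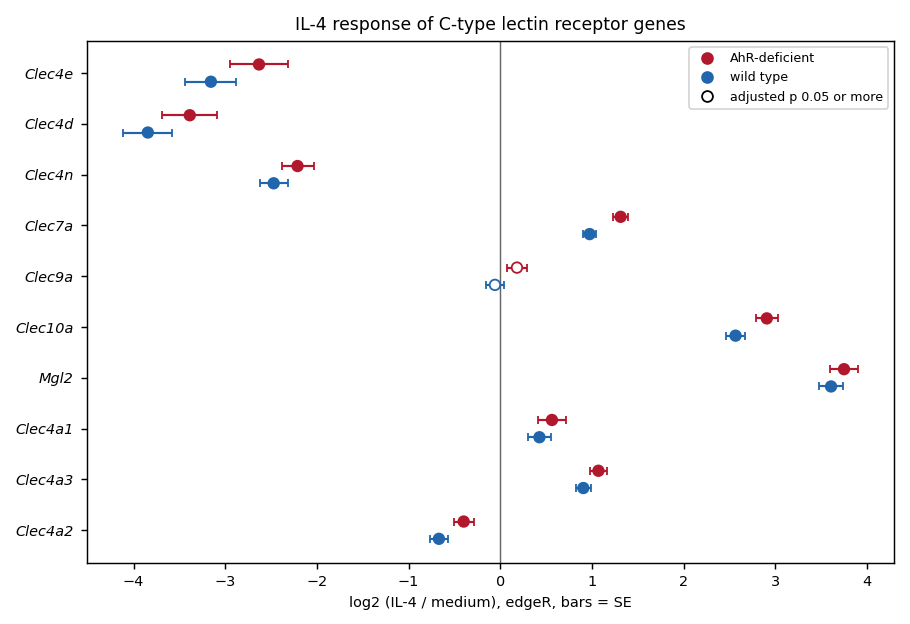
Log2 difference between IL-4 and medium for each member in AhR-deficient and wild-type cells. Bars are SE, filled points have an adjusted p under 0.05, and only Clec9a is open in both genotypes.

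Per length of annotated exons, the order of the members' levels changed with IL-4. Clec7a was first in IL-4, at 741 ± 32.2 CPM per kb in AhR-deficient cells and 573 ± 21.9 CPM per kb in wild type, apart from the next member, Clec4a1, in every library (281 ± 20.4 and 303 ± 15.2 CPM per kb). In medium the top of the order was shared. Clec4d (407 ± 61.1 CPM per kb), Clec4e (313 ± 80.8) and Clec7a (298 ± 26.8) led in AhR-deficient cells, and Clec7a (292 ± 29.9), Clec4d (264 ± 67.9) and Clec4a1 (225 ± 51.1) in wild type, and each neighbour in these orders overlapped with the next. Clec9a was last in all 4 groups, at 3.35 ± 0.16 CPM per kb in IL-4 and 2.95 ± 0.22 in medium in AhR-deficient cells, and 1.91 ± 0.20 and 1.99 ± 0.21 in wild type (SD, n = 3 or 4).

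The make-up of the summed receptor mRNA differed between IL-4 and medium while the sum itself overlapped. The 10 members summed to 3612 to 4053 CPM in IL-4 against 3464 to 4427 CPM in medium in AhR-deficient cells, and to 2962 to 3136 CPM against 2476 to 3939 CPM in wild type. Clec4d, Clec4e and Clec4n together made up 9.87 ± 2.43% of the sum in IL-4 against 63.3 ± 4.68% in medium in AhR-deficient cells, and 6.25 ± 1.11% against 52.7 ± 5.08% in wild type. Clec7a, Clec10a and Mgl2 made up 66.8 ± 1.74% in IL-4 against 22.0 ± 3.65% in medium in AhR-deficient cells, and 63.5 ± 1.72% against 26.2 ± 3.94% in wild type. These shares are of summed CPM, are not corrected for length, and group genes by their direction, so they are a description.

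Along the Clec4 part of chromosome 6 the response changed sign more than once. In gene order, Clec4a1 and Clec4a3 rose at one end and Clec4n, Clec4d and Clec4e fell at the other. Between them lie the member Clec4a2, which fell slightly, and Clec4a4, Clec4b1 and Clec4b2, lectin genes that are not members. Of these nonmembers, Clec4a4 and Clec4b1 were picked after their values were seen. Clec4a4 had log2 differences of 0.54 ± 0.22 in AhR-deficient cells (adjusted p = 0.0814) and 0.61 ± 0.19 in wild type (adjusted p = 0.0209), and Clec4b1 had 0.03 ± 0.13 and −0.03 ± 0.11 (adjusted p = 0.904 and 0.883). Clec4b2, which lies between Clec4a2 and Clec4n, rose by 2.52 ± 0.27 in AhR-deficient cells and 2.13 ± 0.22 in wild type (adjusted p = 8.04e-06 and 4.33e-06), so the order is not a smooth gradient. It was a scarce transcript, at 1.92 to 2.54 CPM in IL-4 against 0.278 to 0.490 CPM in medium in AhR-deficient cells and 2.40 to 3.32 against 0.412 to 0.882 CPM in wild type.

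**Figure D3:**
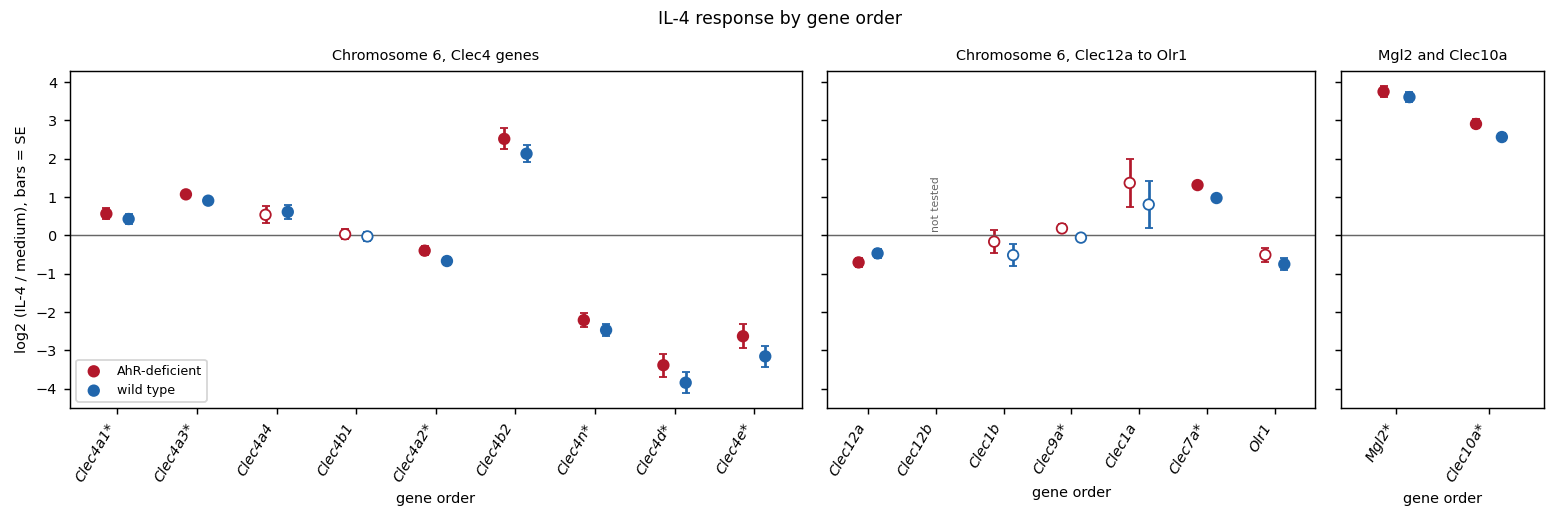
Log2 difference between IL-4 and medium for lectin genes in their order along chromosome 6 and, at the right, chromosome 11, in AhR-deficient and wild-type cells. Members carry an asterisk, bars are SE and open points have an adjusted p of 0.05 or more. The Clec4 row has rises at Clec4a1 and Clec4a3 at one end and falls at Clec4n, Clec4d and Clec4e at the other. The slight fall of Clec4a2 and the rise of Clec4b2 lie between them.

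Within a group, some libraries were high or low for several members together. In wild-type medium, number 7 had the highest levels of Clec4d, Clec4e, Clec4n and Clec7a, and number 1 the lowest levels of Clec4d, Clec4e and Clec4n, at −0.43, −0.68 and −0.29 on the log2 scale relative to the group mean. In AhR-deficient cells number 4 had the highest Clec4d, Clec4e and Clec4n in both IL-4 and medium. Mgl2 and Clec10a were instead lowest of their medium groups in number 4 of AhR-deficient cells and in number 3 of wild type. The standard errors of the IL-4 responses were 0.15 to 0.31 for Clec4d, Clec4e and Clec4n, and 0.07 to 0.15 for Clec7a, Clec10a, Mgl2, Clec4a1 and Clec4a3.

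Between genotypes few members passed the test. In medium 1 of 10 members was called, Clec9a, where 8.11% of all genes were called (4.16% higher in AhR-deficient cells and 3.95% lower). With IL-4, 3 of 10 were called, Clec9a, Clec10a and Clec7a, all higher in AhR-deficient cells, where 1.62% of all genes were called (0.956% higher and 0.664% lower). The median log2 difference, AhR-deficient over wild type, was 0.42 over the members in IL-4 and 0.17 in medium, against −0.01 and 0.01 over all genes. Libraries of the genotypes did not overlap for 6 of 10 members in IL-4 (18.2% of all genes) and for 3 of 10 in medium (20% of all genes). The per-library values are those given above. These comparisons share their libraries with the IL-4 comparisons and are not separate evidence. Here too the members were chosen with earlier results known, so their counts beside all genes are a description.

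Clec9a was higher in AhR-deficient cells in both conditions, with no overlap of libraries. It averaged 11.03 ± 0.51 CPM in AhR-deficient cells against 6.28 ± 0.65 CPM in wild type in IL-4 (log2 difference 0.81 ± 0.10, adjusted p = 0.0014) and 9.72 ± 0.74 against 6.54 ± 0.69 CPM in medium (0.57 ± 0.10, adjusted p = 0.00891). The call in IL-4 held without each library in turn, and was lost without numbers 1 and 2 (0.78, adjusted p = 0.0545). The call in medium was lost without AhR-deficient number 4 (0.52, adjusted p = 0.0614), without numbers 1 and 2 (0.46, adjusted p = 0.152) and with only the groups compared in the model (0.56, adjusted p = 0.0603). The 16 dendritic cell markers, of which 14 were tested, summed to 2558 to 2797 CPM in AhR-deficient cells against 2777 to 2861 CPM in wild type in IL-4, and to 1824 to 1986 against 1868 to 1925 CPM in medium. Most of each sum was Sirpa, which macrophages also express, at 1623 against 1698 CPM in IL-4 and 1170 against 1163 CPM in medium. Of the 14, 1 was called higher in AhR-deficient cells in IL-4, Irf8 (0.40 ± 0.09, adjusted p = 0.0474), a transcription factor gene of these dendritic cells and of monocytes, and 1 lower, Cd24a (−0.69 ± 0.08, adjusted p = 0.000757), where 1.62% of all genes were called. In medium 0 were called higher and 1 lower, Cd24a again (−0.42 ± 0.08, adjusted p = 0.0106), where 8.11% of all genes were called. Irf8 averaged 248 ± 22.0 CPM in AhR-deficient cells against 188 ± 10.5 CPM in wild type in IL-4, with no overlap of libraries, and 296 ± 27.7 against 248 ± 28.8 CPM in medium. Means of Zbtb46 (4.22 against 2.94 CPM in IL-4, 6.75 against 4.26 CPM in medium) and Cadm1 (0.828 against 0.457 CPM, and 1.77 against 1.30 CPM) were also higher in AhR-deficient cells without passing, while Naaa averaged 196 against 285 CPM in IL-4 and 98.9 against 125 CPM in medium. The part of dendritic cells in the Clec9a difference was not tested. Xcr1 and Tlr3, which the dendritic cells that carry Clec9a also express, were too low to be tested. Xcr1 averaged 0 CPM in AhR-deficient cells and 0.0261 in wild type in IL-4, and 0.0727 and 0.0204 in medium, and Tlr3 averaged 0.129 and 0.0752 CPM in IL-4 and 0.118 and 0.210 CPM in medium.

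Clec7a and Clec10a were higher in AhR-deficient cells in IL-4 by smaller amounts. Clec7a averaged 1954 ± 84.9 CPM in AhR-deficient cells against 1512 ± 57.8 CPM in wild type (log2 difference 0.37 ± 0.08, adjusted p = 0.0333), and Clec10a 436 ± 23.5 against 322 ± 22.6 CPM (0.44 ± 0.10, adjusted p = 0.0487). In both cases every AhR-deficient library was above every wild-type library. In medium, by contrast, they had log2 differences of 0.03 ± 0.08 and 0.10 ± 0.10 (adjusted p = 0.836 and 0.604), and their libraries overlapped. These adjusted p-values lay close to the threshold, and leaving out nearly any 1 library lost the call. Clec7a was called in 1 of 7 models without 1 library, the one without wild-type number 3 (0.33 to 0.40 over all 7), and Clec10a in 0 of 7 (0.40 to 0.50). With a granulocyte marker score as a covariate they had log2 differences of 0.29 and 0.46 (adjusted p = 0.183 and 0.17). That score, the mean log2 CPM of neutrophil and eosinophil markers, was 3.36 to 4.28 in AhR-deficient cells against 4.06 to 5.11 in wild type in IL-4, and 3.35 to 4.28 against 3.85 to 4.98 in medium. The 17 neutrophil markers summed to 1367 to 1774 CPM in AhR-deficient cells against 1469 to 1914 CPM in wild type in IL-4. Single markers of this list went both ways between genotypes in IL-4. Csf3r averaged 676 CPM in AhR-deficient cells against 551 CPM in wild type, and S100a9 104 against 208 CPM.

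The 3 falling receptor genes were higher in AhR-deficient cells in point estimate without passing, and in IL-4 their calls varied with the model. In IL-4 the log2 differences were 1.05 ± 0.28 for Clec4e (adjusted p = 0.0686), 1.08 ± 0.26 for Clec4d (adjusted p = 0.0558) and 0.67 ± 0.16 for Clec4n (adjusted p = 0.0518). The libraries of the genotypes did not overlap for Clec4e and Clec4n, and for Clec4d they did, by AhR-deficient number 6 and wild-type number 3. In medium the values were 0.53 ± 0.27 (adjusted p = 0.239), 0.62 ± 0.25 (adjusted p = 0.134) and 0.41 ± 0.15 (adjusted p = 0.111). Mgl2 had 0.40 ± 0.12 in IL-4 (adjusted p = 0.107) and 0.25 ± 0.14 in medium (adjusted p = 0.262). DESeq2's Wald test called 7 members higher in AhR-deficient cells in IL-4, these 4 with Clec7a, Clec10a and Clec9a. With the library number as a random block in limma-voom, Clec4d (1.06, adjusted p = 0.044) and Clec4n (0.67, adjusted p = 0.0321) were called, and Clec4e (adjusted p = 0.0503) and Mgl2 (adjusted p = 0.0524) were not. Over 16 alternatives Clec4n was called in 7, Clec4d in 6 and Clec4e in 3, with adjusted p-values of 0.00129 to 0.27, 0.00838 to 0.316 and 0.02 to 0.338.

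The DCIR genes had the other sign, again without passing. In IL-4 the log2 differences were −0.11 ± 0.14 for Clec4a1, −0.02 ± 0.10 for Clec4a2 and −0.04 ± 0.08 for Clec4a3 (adjusted p = 0.738, 0.945 and 0.855), values at which the sign of Clec4a2 and Clec4a3 changed when single libraries were left out. In medium they were −0.24 ± 0.14, −0.29 ± 0.10 and −0.20 ± 0.09 (adjusted p = 0.288, 0.0939 and 0.147). Clec4a2 was lower in all 3 AhR-deficient libraries than in any wild-type library in medium.

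**Figure D4:**
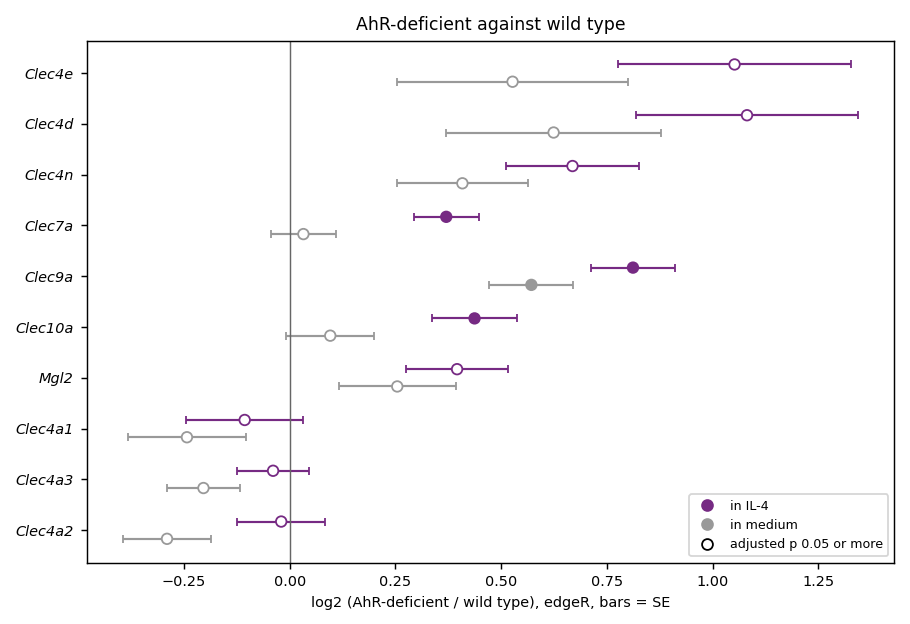
Log2 difference between AhR-deficient and wild-type cells for each member, in IL-4 and in medium. Bars are SE and filled points have an adjusted p under 0.05; Clec9a is filled in both conditions, and Clec7a and Clec10a in IL-4.

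Whether the IL-4 response itself differed between genotypes was tested by the interaction of genotype and IL-4, and no member passed. edgeR called 0 of 10 members and 0% of all genes, where 558 genes had an unadjusted p under 0.05, and by DESeq2 3 genes passed, none of them a member. The estimates, the response in AhR-deficient cells minus that in wild type, were positive for all 10 members, from 0.14 for Clec4a1 to 0.52 for Clec4e, with a median of 0.27 against −0.01 over all genes. For the rising genes this is a larger rise and for the falling genes a smaller fall, and the 10 values share libraries and are not independent. The estimate was 0.34 ± 0.11 for Clec7a and 0.34 ± 0.15 for Clec10a, the pair with the smallest unadjusted p-values in edgeR (adjusted p = 1 for each). With the library numbers as a block the adjusted p-values were 0.46 to 0.863.

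Other C-type lectin genes of myeloid cells went in both directions with IL-4, like the members. Of 29 listed, 22 were tested. In AhR-deficient cells 6 rose, 7 fell and 9 did not pass (29.5% of all genes called), and in wild type 5 rose, 7 fell and 10 did not pass (35.9%). The mannose receptor gene Mrc1 rose most, to 364 ± 38.4 CPM in IL-4 against 4.61 ± 0.94 CPM in medium in AhR-deficient cells and to 340 ± 78.7 against 3.85 ± 0.47 CPM in wild type (log2 differences 6.30 ± 0.22 and 6.46 ± 0.19, adjusted p = 9.62e-11 and 1.26e-11). Cd209e, a relative of the dendritic cell receptor DC-SIGN, rose by 4.36 ± 0.34 and 3.75 ± 0.29, and Clec16a, an endosomal protein gene, by 0.43 ± 0.05 and 0.47 ± 0.04. Cd209e was scarce, averaging 3.21 CPM in IL-4 against 0.152 CPM in medium in AhR-deficient cells and 2.34 against 0.172 CPM in wild type. Clec5a, an activating receptor gene that signals through Tyrobp, had −1.35 ± 0.21 and −1.09 ± 0.18, and the early activation gene Cd69 −1.47 ± 0.36 and −1.76 ± 0.33, and both passed in both genotypes. Of the 22, 0 passed between genotypes in IL-4 (1.62% of all genes) and 0 in medium (8.11%).

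Genes for the signalling machinery below the receptors fell more often than they rose. Of 20 listed and tested, 3 rose, 7 fell and 10 did not pass in AhR-deficient cells (29.5% of all genes called), and 4 rose, 10 fell and 6 did not pass in wild type (35.9%), with median log2 differences of −0.20 and −0.19. The adaptor genes Fcer1g (−0.33 ± 0.06 in AhR-deficient cells and −0.29 ± 0.05 in wild type) and Tyrobp (−0.34 ± 0.05 and −0.31 ± 0.05) fell, as did the kinase genes Syk (−0.61 ± 0.08 and −0.70 ± 0.07) and Lyn (−0.61 ± 0.05 and −0.70 ± 0.05). The kinase gene Prkcd, which acts between Syk and Card9, rose (1.02 ± 0.14 and 1.0 ± 0.12). In medium 4 of the 20 passed between genotypes (8.11% of all genes), 2 higher and 2 lower in AhR-deficient cells, the lower ones being the lipid kinase gene Pik3cd (−0.30 ± 0.06) and the transcription factor gene Nfatc2 (−0.63 ± 0.17), and in IL-4 0 passed (1.62% of all genes).

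Among 12 tested genes for phosphatases, ubiquitin ligases and adaptors that restrain such signalling, 2 rose and 3 fell in AhR-deficient cells (29.5% of all genes called) and 3 rose and 2 fell in wild type (35.9%), shares not far from those over all genes. The adaptor gene Dok2 rose most, to 70.4 ± 3.58 CPM in IL-4 against 7.16 ± 1.30 CPM in medium in AhR-deficient cells and to 94.6 ± 13.4 against 8.76 ± 1.09 CPM in wild type (3.30 ± 0.15 and 3.43 ± 0.13). Its relative Dok1 fell (−0.46 ± 0.07 and −0.41 ± 0.06). Of the ubiquitin ligase genes, Cbl rose (0.85 ± 0.09 and 1.0 ± 0.07) and Cblb fell (−0.99 ± 0.14 and −0.65 ± 0.12). The phosphatase gene Ptpn6 rose in wild type (0.40 ± 0.08, adjusted p = 0.0018) and had 0.13 ± 0.10 in AhR-deficient cells (adjusted p = 0.369), and the interaction did not pass (−0.27 ± 0.13, adjusted p = 1). Inpp5d did not pass in either genotype (−0.07 ± 0.09 and −0.20 ± 0.08). Trim62, an activator of Card9 counted in this list, was lower in AhR-deficient cells in medium (−0.58 ± 0.11, adjusted p = 0.0121). All p-values for these genes are edgeR's, adjusted over all genes tested.

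**Figure D5:**
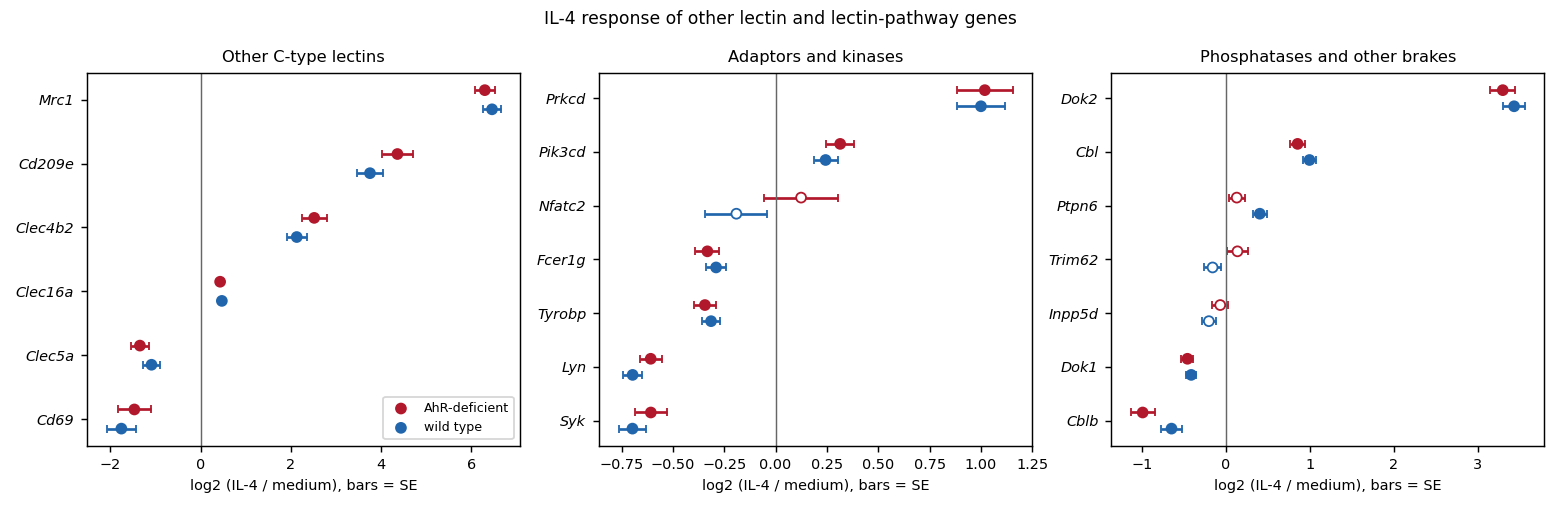
Log2 difference between IL-4 and medium for the named genes of the other C-type lectin list, the adaptor and kinase list and the list of restraining genes, in AhR-deficient and wild-type cells. Bars are SE, filled points have an adjusted p under 0.05 and the axes differ between panels; Mrc1 and Dok2 reach the largest rises of their lists, and Syk and Lyn sit below 0 in both genotypes.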

How the data were processed

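Poly(A) RNA libraries were made with a stranded kit and sequenced as 100-nt read pairs, per the labels' protocols. The deposited table holds raw counts, with 1 row per gene and 1 column for each library. The submitters' processing notes name FastQC, STAR and mm10. For the counting program, its annotation and its strand setting, the entry is "not given in the sources used here". Identifiers were matched to GENCODE M21 of GRCm38 (55094 of 55487 with their version).

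The main analysis used edgeR 4.0.16 in R 4.3.3 (filterByExpr, TMM scaling, quasi-likelihood F-test, 1 mean per group over 14 libraries, Benjamini-Hochberg over 14754 genes, threshold 0.05). SE is the log2 difference divided by the square root of F. CPM per kb divides by merged exon length. DESeq2 1.42.0 and limma 3.58.1 gave alternatives. The edgeR, DESeq2 and limma-voom fits were run on simulated counts with changes in the wild-type IL-4 libraries. That check covers the IL-4 response in wild type only. Replicates differed by more than counting error (13.2 to 57.5 times, as chi-square over its degrees of freedom).

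Libraries of the same number may be paired, but the titles give the number only and do not state a pairing. Their deviations from the group means correlated at r of 0.157 to 0.733 over 9687 genes in the 7 numbers. In 6 of 7 both libraries correlated best with each other within the group compared. In number 7, with the lowest r, they did not, so a pairing is least certain there. The number was a block in an alternative model. Since the genotypes share no number, their differences could not be fitted with a fixed block.

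The members and lists were chosen with earlier results of these data known. All members are named. Of the 3 lists of related genes, up to 6 with the smallest adjusted p for IL-4 in wild type and any called between genotypes are named. A few genes that this rule reaches are left out. The lists were other C-type lectins, signalling genes, restraining genes and markers of cell types. Mature macrophage markers summed to 522 CPM in IL-4 and 350 CPM in medium in AhR-deficient cells and 626 and 433 CPM in wild type (means). Eosinophil, basophil and mast cell, and red cell and platelet markers summed to at most 252, 289 and 99.7 CPM. Promoter windows came from RefSeq (GRCm38.p6) and were aligned with Biopython 1.88. Figures were drawn with matplotlib 3.10.9.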

Additional observations from a re-analysis of the deposited data

Results flagged for a closer look

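Clec7a in wild-type cells in medium stood at 886 CPM (886.017) in number 7, against 721 to 747 CPM in the other 3 libraries. The gap to the nearest of them was 0.846 of the range of the group, above Dixon's 95% limit for 4 values, and chance alone sets off this rule in about 1 of 20 groups. The same library was also the highest of its group for Clec4d, Clec4e and Clec4n. The granulocyte marker score of number 7 was 4.69 in IL-4 against 3.85 in medium. Its part in the results was checked by leaving it out: the rise of Clec7a with IL-4 in wild type was called without each library in turn (log2 differences of 0.94 to 1.05).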

How the results depend on the processing

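For IL-4, 8 or 9 members were called in 18 of 18 alternatives in wild type and 16 of 16 in AhR-deficient cells. The calls lost were Clec4a1 in wild type in 1 alternative (adjusted p = 0.191) and Clec4a2 in AhR-deficient cells in 2 (adjusted p up to 0.0621). For the interaction 0 were called in 23 of 23. With the numbers as a fixed replicate block the IL-4 responses again had 9 members called in each genotype and the interaction 0. A random block could also be fitted between genotypes, where it added the calls of Clec4d and Clec4n in IL-4. The numbers of members called between genotypes moved, and the cause was not tested. In medium, against 1, there were 2 with DESeq2's Wald test, 0 with only the groups compared in the model, 0 without numbers 1 and 2, and 0 to 2 without 1 library. In IL-4, against 3, there were 7 with DESeq2's Wald test, 6 with no filter on low counts, 5 with a filter of 1 CPM in 3 libraries, 5 with only the groups compared, 5 with the number as a random block in limma-voom, 1 with the granulocyte score, 0 without numbers 1 and 2, and 1 to 3 without 1 library. Over all genes, only the groups compared gave 59 calls in medium and 523 in IL-4, against 1197 and 239, DESeq2 gave 1981 and 802, and leaving out numbers 1 and 2 gave 30 and 25. Of 890 values of single members under alternatives, 835 kept direction and side of the threshold, 25 lost and 20 gained the call, and 10 changed sign, all of log2 differences near 0 and uncalled. These were Clec7a between genotypes in medium (−0.040 without numbers 1 and 2, −0.023 with the granulocyte score, and −0.045 to 0.11 without 1 library), Clec4a2 between genotypes in IL-4 (0.073 with the granulocyte score, and −0.11 to 0.075 without 1 library), Clec4a3 there (−0.065 to 0.0060 without 1 library) and Clec9a for IL-4 in wild type (−0.13 to 0.013 without 1 library).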
